A study of Homo sapiens with 6 samples.

Results

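Krüppel-like factors (KLFs) were followed in a bulk RNA-seq comparison of bladder tumours. The 10 genes KLF2, KLF3, KLF4, KLF5, KLF6, KLF7, KLF9, KLF10, KLF11 and KLF13 were taken by their gene symbol, each of which stood on 1 line of the deposited tables, out of 21503 genes with counts. All 10 passed the filter on low counts, as did 19430 genes in all. The tumours came from UMUC3 cells, a long-established line of human bladder carcinoma, placed in the bladders of C57 nude mice, the organ of origin, and grown for 14 days. Of the 6 libraries, 3 were from control cells and 3 from cells with knockdown of GANAB, the catalytic subunit of glucosidase II, which trims glucose from new N-glycans in the endoplasmic reticulum. How the knockdown was made, how many clones were used, what the control cells carried and whether replicates are different mice are not in the labels, so p-values measure the spread between these samples only, which may be technical. The host mouse keeps its own stroma, vessels and innate immune cells, and in bulk tumour RNA fewer cells of a type cannot be told apart from less RNA per cell.

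KLFs are transcription factors with a run of zinc fingers at the carboxy end that binds GC-rich and CACCC sequences, and they are relatives of SP1. KLF2, KLF4 and KLF6 are induced within minutes to hours by serum, fluid shear stress and inflammatory signals, and KLF10 and KLF11 were found as early genes of TGF-beta. KLF5 promotes growth of basal epithelium, KLF3 is a repressor that works through CtBP, and KLF9, KLF10, KLF11 and KLF13 recruit the SIN3A corepressor. In the urothelium, KLF4 and KLF5 are known as regulators of epithelial renewal and differentiation.

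Libraries held 11737837 to 40039584 estimated counts, with the lowest in control library 3. GANAB, the targeted gene, read 685, 825 and 661 CPM (counts relative to library size, with TMM scaling) in the controls, against 231, 238 and 231 CPM under knockdown. Values per library are given in the order 1, 2 and 3 here and below. GANAB fell by 1.63 on the log2 scale (edgeR adjusted p = 0.00239), the direction its labels give. Control library 1 stood apart, with 32.6% of its counts from mitochondrial genes against 2.18 to 6.53% in the other 5. The knockdown libraries lay close together, with a biological coefficient of variation of 10.7% against 52.3% in the controls. Of the genes tested, 8.31% differed between knockdown and control (edgeR quasi-likelihood test, Benjamini-Hochberg adjusted p under 0.05, used throughout), 4.59% higher and 3.72% lower in the knockdown. For 37.6% of genes the CPM values of the groups did not overlap, with every knockdown value above every control value for 21.9%. Of bladder epithelial markers, KRT8 and KRT18 averaged 123 and 169 TPM in control libraries, while the urothelial genes UPK3A and KRT20 were listed at 0 in every library and the urothelial regulator GATA3 averaged 0.344 TPM.

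KLF2, KLF4 and KLF10 rose in the knockdown libraries, 3 of the 10 genes (30%) against 4.59% of all genes tested, and none fell. At an unadjusted p under 0.05, 6 were higher and 0 lower. The share of all genes at that unadjusted threshold was not counted, here or below. The DESeq2 Wald test also gave 3 risen and 0 fallen, in a fit in which 18.8% of all genes passed. The median log2 fold change of the 10 was 0.48, against 0.03 over all genes tested. For 7 of the 10, all 3 knockdown values lay above all 3 control values (KLF2, KLF3, KLF4, KLF6, KLF7, KLF10 and KLF13), and for none was the order the opposite. KLF2 and KLF4 passed whichever of the 6 libraries was left out. KLF10 passed in 2 of these 6, and the count of risen KLF genes was 2 without control library 1 or any of the knockdown libraries, and 4 without control library 2. The number of all genes that passed also moved with single libraries, from 1614 to 5604 without control library 2 and to 62, 115 and 88 without knockdown libraries 1, 2 and 3. In those last fits only 0.311%, 0.575% and 0.44% of genes passed, and KLF2 and KLF4 were among them.

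**Figure D1:**
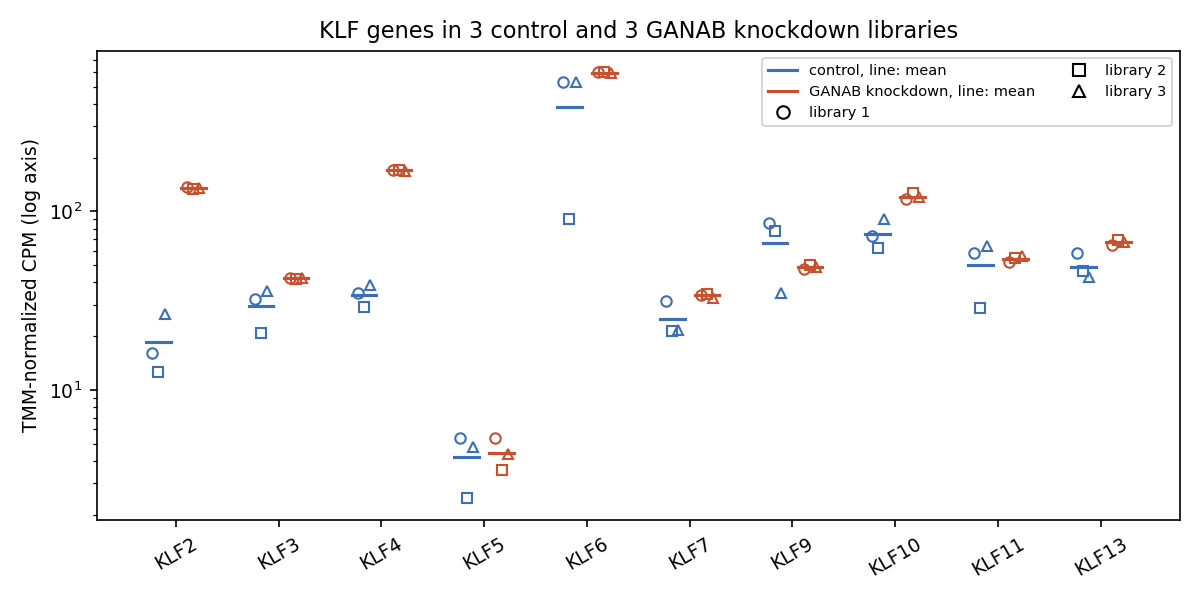
TMM-normalized CPM (log axis) of each KLF gene in the 3 control (blue) and 3 GANAB knockdown (orange) libraries, with the symbol giving the library number and a line at each group mean. KLF2 and KLF4 are separated by a wide gap, and KLF6 shows 1 low control at 91.0 CPM.

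KLF2, the flow-induced factor that keeps endothelium and resting lymphocytes quiescent, changed most. The controls read 16.0, 12.7 and 26.7 CPM for KLF2, and the knockdown libraries 137, 134 and 135 CPM. The groups lay far apart, and control library 3 was the highest of the controls. KLF2 rose 7.37-fold (log2 fold change 2.88, SE 0.28, edgeR adjusted p = 0.00325). This was the 136th largest fitted rise among the 892 genes that rose. Without each library in turn the rise was 6.50-fold to 9.10-fold, the latter without control library 3, the control with the highest level.

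KLF4, one of the reprogramming factors and a regulator of epithelial barrier genes, followed closely. For KLF4 the controls read 34.8, 29.2 and 38.5 CPM, and the knockdown libraries 170.0, 169 and 169 CPM. The groups were 4.37-fold apart at their nearest values, and the control libraries varied less for KLF4 (coefficient of variation 13.7%) than for any other of the 10 genes. KLF4 rose 4.96-fold (log2 fold change 2.31, SE 0.15, edgeR adjusted p = 0.000981), and 4.65-fold to 5.10-fold when each library was left out in turn. Per gene length, KLF2 averaged 14.6 ± 8.87 TPM in controls against 125 ± 2.70 TPM under knockdown, and KLF4 14.5 ± 3.68 and 91.5 ± 1.14 TPM (SD, n = 3 each).

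The DNA just before the start sites of KLF2 and KLF4 is shown because these genes rose most. KLF2 lies on chromosome 19, 16324817 to 16327874, plus strand, and KLF4 on chromosome 9, 107484852 to 107490482, minus strand (GRCh38, GENCODE release 29), and neither overlaps another annotated gene. The 250 bases before the RefSeq start (GRCh38.p14) cover chr19:16324576-16324825 for KLF2 and chr9:107489770-107490019 for KLF4, each printed 5′ to 3′ on the strand of the gene. The KLF4 window holds 0 exon bases of the GENCODE annotation and lies in an intron of 1 of its 6 KLF4 transcripts, which starts further upstream, while 9 bases at the end of the KLF2 window are in the annotated first exon. Capitals mark GC boxes (GGGCGG), the core of the cyclic AMP response element (TGACG) and the MEF2 consensus, each on either strand.
KLF2: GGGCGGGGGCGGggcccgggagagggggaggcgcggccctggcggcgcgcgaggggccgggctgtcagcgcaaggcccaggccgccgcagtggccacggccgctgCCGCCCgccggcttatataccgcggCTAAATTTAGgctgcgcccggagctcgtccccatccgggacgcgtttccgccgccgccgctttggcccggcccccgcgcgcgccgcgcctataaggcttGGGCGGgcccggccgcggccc
KLF4: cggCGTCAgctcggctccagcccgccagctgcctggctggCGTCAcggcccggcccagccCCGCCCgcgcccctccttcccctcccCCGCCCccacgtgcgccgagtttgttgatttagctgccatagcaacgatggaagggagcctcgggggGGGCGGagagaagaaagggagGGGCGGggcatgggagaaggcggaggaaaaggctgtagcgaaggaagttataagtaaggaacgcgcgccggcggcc

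The KLF2 window holds 1 match to the MEF2 consensus, at position -120 from the start, the type of site through which the MEK5-ERK5-MEF2 route is known to act on this gene. Such a match occurs before 2.80% of the 35116 starts in the RefSeq table. KLF2 has 4 GC boxes, at positions -250, -244, -145 and -21. KLF4 has 4 as well, at -190, -164, -97 and -76, along with TGACG at -247 and -210. A GC box occurs before 42.6% of all starts and TGACG before 21.2%. GC content was 80.0% before KLF2 and 69.2% before KLF4, against a median of 58.0% over all starts. Of the 10 genes, 8 were matched in the table, with 13 starts between them. KLF3 was not matched. Starts on chromosome 8, which holds KLF10, were left out of the match, so KLF10 was not searched. No GC box was found before 5 of the 13 starts, which had 32.4 to 58.0% GC and belong to KLF5, KLF7 and KLF9. The other motifs searched on both strands were CACCC (before 54.7% of all starts), TATAAA (10.7%), the full cyclic AMP response element TGACGTCA (1.65%), which contains TGACG, and the CArG box that SRF binds (1.16%). A match to these letters is a description of the window and not a measured binding site.

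**Figure D2:**
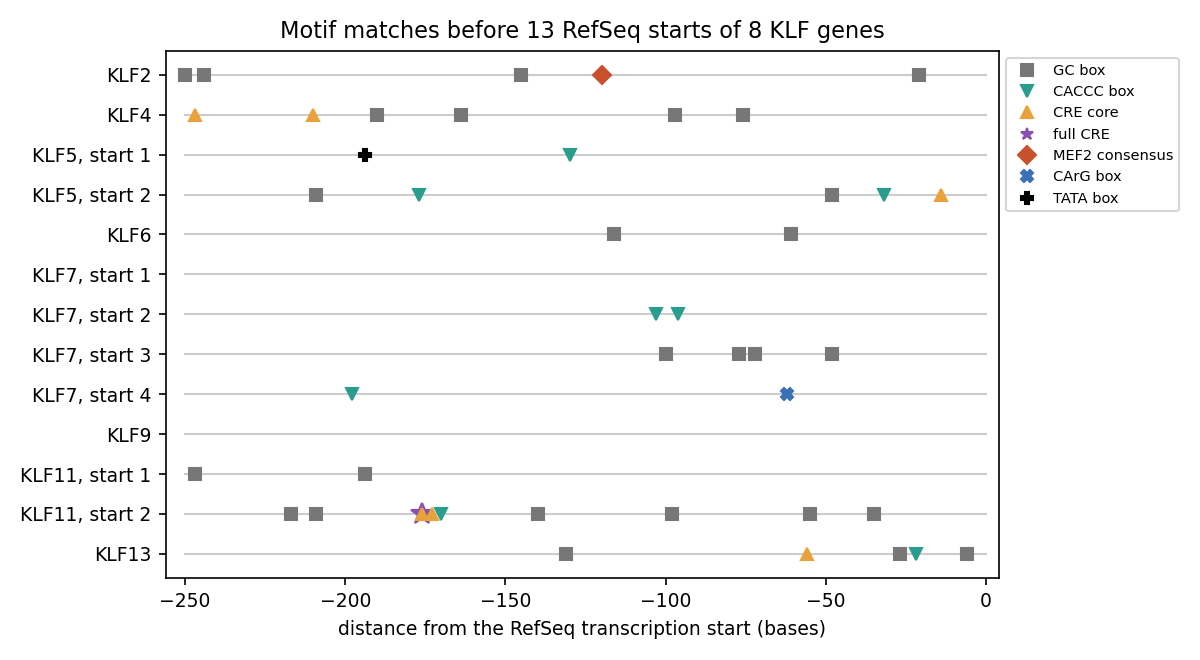
Matches to 7 motifs on either strand in the 250 bases before 13 RefSeq starts of 8 KLF genes, by distance from the start in bases. CRE core marks matches to TGACG. The MEF2 consensus is found before KLF2 alone among these starts, and the CArG box before 1 start of KLF7.

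KLF10, an early TGF-beta response gene whose product represses SMAD7 and restrains growth, had the smallest of these rises. KLF10 lies on chromosome 8, 102648779 to 102655902, minus strand (GRCh38), and overlaps no other annotated gene. The controls read 72.4, 62.0 and 90.1 CPM for KLF10, and the knockdown libraries 117, 126 and 120.1 CPM. The groups did not overlap, with a ratio of 1.30 between their nearest values. KLF10 rose 1.62-fold (log2 fold change 0.69, SE 0.16, edgeR adjusted p = 0.0434). The call was lost without control library 1 (edgeR adjusted p = 0.0737) and without knockdown library 1, 2 or 3 (edgeR adjusted p = 0.183, 0.200 and 0.193), while the log2 fold change stayed between 0.58 and 0.80 over the 6 fits. The related factor KLF11, which also represses SMAD7 and acts in pancreatic beta cells, read 58.0, 28.9 and 64.0 CPM in controls, against 52.1, 54.8 and 56.0 CPM under knockdown. The KLF11 groups overlapped, with a log2 fold change of 0.11 (95% interval -0.53 to 0.76). Here and below the intervals are of single genes, unadjusted.

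KLF6, a tumour suppressor candidate and injury-response factor, was the most abundant of the 10 and the most uneven among the controls. The controls read 529, 91.0 and 532 CPM for KLF6, a 5.85-fold range. The knockdown libraries read 602, 600.1 and 593 CPM, a 1.02-fold range. Every knockdown value was above every control value, but the highest control was within 1.11-fold of the lowest knockdown value. KLF6 did not pass (log2 fold change 0.64, 95% interval -0.66 to 1.94, edgeR adjusted p = 0.525). Without control library 2 the difference was 0.18 on the log2 scale (edgeR adjusted p = 0.122).

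KLF3, the CtBP-dependent repressor, KLF7, known for its role in neurons and fat cells, and KLF13, an activator of CCL5 in T cells, each had knockdown values above control values by a narrow gap. KLF3 read 32.1, 20.8 and 35.6 CPM in controls, against 42.4, 41.6 and 42.4 CPM under knockdown (log2 fold change 0.52, edgeR adjusted p = 0.171). For KLF13 the controls read 58.2, 46.2 and 42.8 CPM, against 65.0, 69.5 and 67.5 CPM under knockdown (log2 fold change 0.45, edgeR adjusted p = 0.110). KLF7 read 31.5, 21.3 and 21.6 CPM in controls, against 34.0, 34.6 and 32.7 CPM under knockdown (log2 fold change 0.45, edgeR adjusted p = 0.187). None of these 3 genes passed the test, and KLF3 passed without control library 2, the lowest control for that gene (log2 fold change 0.32, edgeR adjusted p = 0.0327). KLF3 overlaps KLF3-AS1 on the opposite strand, KLF7 overlaps 2 microRNA genes and a sense intronic RNA, KLF13 a pseudogene, and KLF11 an antisense RNA, and whether quantification used strand was not stated, so reads of KLF3 and KLF11 and of the antisense genes may not be separated. The other 6 KLF genes overlap no annotated gene.

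KLF5 and KLF9 had overlapping groups. KLF5, which drives epithelial growth, was the least abundant, at 5.41, 2.47 and 4.77 CPM in controls and 5.36, 3.54 and 4.38 CPM in knockdown libraries. These values rest on 47 to 216 counts a library. Its log2 fold change was 0.07 (95% interval -0.81 to 0.95). KLF9, a glucocorticoid and thyroid hormone response gene, was the only member lower in the knockdown by the fit. KLF9 read 86.2, 77.2 and 35.0 CPM in controls, against 47.2, 50.3 and 48.6 CPM under knockdown, so control library 3 lay below all knockdown values and the other controls above them. It did not pass (log2 fold change -0.44, 95% interval -1.16 to 0.27, edgeR adjusted p = 0.412), but without control library 3 it fell by 0.80 on the log2 scale (edgeR adjusted p = 0.0208).

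**Figure D3:**
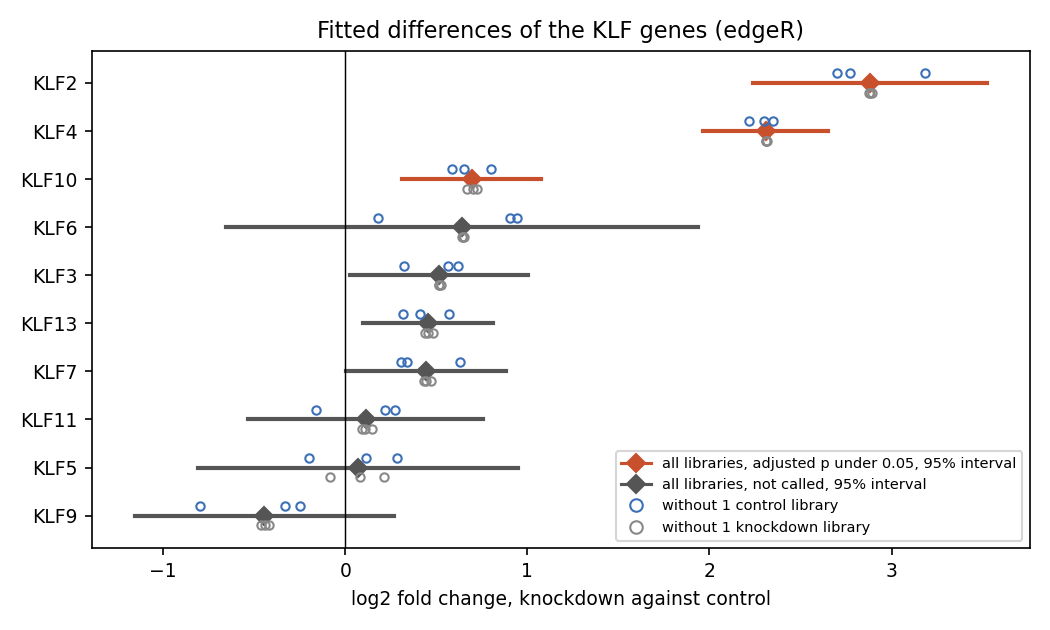
Fitted log2 fold change of each KLF gene, knockdown against control, with its unadjusted 95% interval (diamonds and bars, orange where the adjusted p is under 0.05) and the values without 1 library (open circles, blue for controls and grey for knockdown libraries). KLF2 and KLF4 stay above 2 in every fit, while KLF6 and KLF9 move most with the control left out.

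The 10 genes were more even in the knockdown than in the control libraries. The median coefficient of variation of their CPM was 31.5% over the 3 controls and 2.98% over the 3 knockdown libraries, and it was higher in controls for 10 of 10. It was also higher in controls for 91.0% of all genes tested. Control library 2 had the lowest control value of every KLF gene except KLF9 and KLF13, whose lowest was in control library 3.

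Levels of different genes were compared on the deposited TPM scale, which accounts for gene length. In control libraries the order of means ran from KLF6 (95.6 ± 65.8 TPM) through KLF10 (30.7 ± 10.5), KLF11 (15.1 ± 6.01), KLF2, KLF4, KLF9 (14.2 ± 5.12), KLF13 (9.83 ± 2.27), KLF7 (7.94 ± 3.25) and KLF3 (6.97 ± 1.99) to KLF5 (2.87 ± 1.60; SD, n = 3 for each). Neighbours in this order overlapped in range except KLF10 with KLF11 and KLF3 with KLF5, and KLF6 was below KLF10 in control library 2 (26.4 against 28.2 TPM). In knockdown libraries the order was KLF6 (208 ± 7.67 TPM), KLF2, KLF4, KLF10 (56.5 ± 3.14), KLF13 (20.8 ± 1.26), KLF11 (19.7 ± 1.44), KLF3 (14.7 ± 0.163), KLF9 (12.6 ± 0.593), KLF7 (9.60 ± 0.740) and KLF5 (4.99 ± 1.07; SD, n = 3 for each). There, KLF13 and KLF11 were the 1 pair of neighbours whose ranges overlapped. By the means, KLF2 stood at place 4 in the controls and place 2 in the knockdown libraries, and KLF4 at places 5 and 3. Within the single control libraries KLF2 was at places 6, 7 and 3, and KLF4 at places 5, 4 and 5.

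Summed over the 10 genes, TPM came to 203, 129 and 305 in the controls, against 559, 575 and 554 under knockdown. KLF2 and KLF4 together made up 10.4%, 18.3% and 14.0% of that sum in the controls, and 38.9%, 37.5% and 38.8% in the knockdown libraries. KLF6 made up 50.9%, 20.5% and 51.5% of the sum in the controls, and 36.4%, 37.7% and 36.7% under knockdown. Control library 2 had the smallest KLF6 share and the largest share of KLF2 and KLF4 among the controls. The TPM scale itself was shifted: over the 15583 genes averaging 1 TPM or more, the median log2 difference, knockdown minus control, was 0.23. TPM has no TMM scaling, and control library 1 had 32.6% of its counts from mitochondrial genes. For KLF6, control libraries 1 and 3 read 529 and 532 CPM but 103 and 157 TPM. The part of this library in the shift was not tested. On the TPM scale, with 1 added, log2 differences were larger than in the count fit for KLF3 (1.01), KLF13 (1.03), KLF6 (1.44) and KLF5 (0.72), but these 4 did not pass (limma-trend adjusted p = 0.0621, 0.0554, 0.168 and 0.320).

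**Figure D4:**
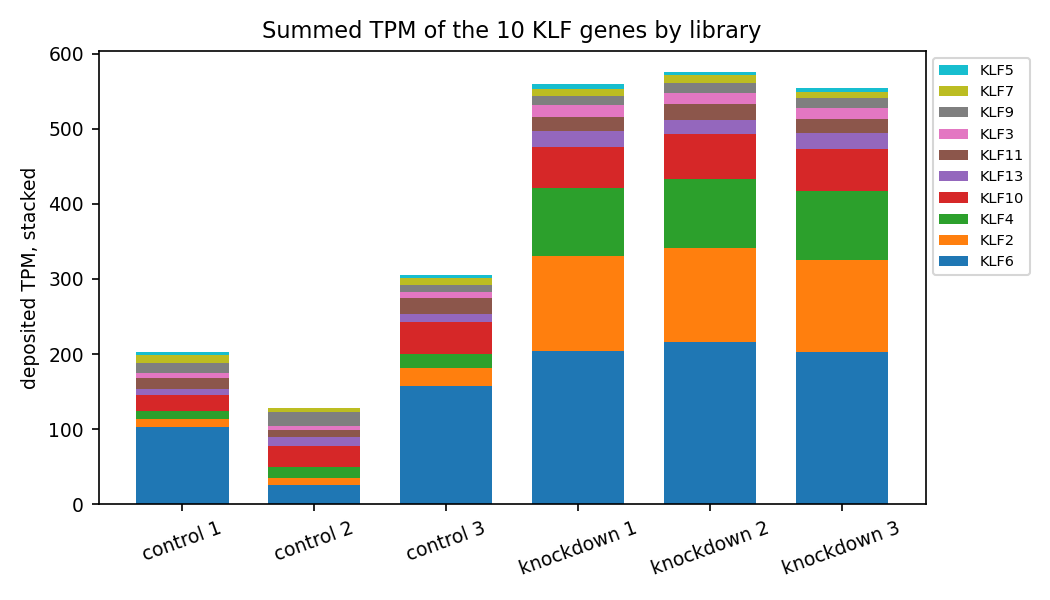
Deposited TPM of the 10 KLF genes stacked by library, from KLF6 at the bottom to KLF5 at the top. The 3 knockdown libraries reach 554 to 575 TPM with KLF2 (orange) and KLF4 (green) as broad bands, and the controls reach 129 to 305 TPM.

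The rest of the KLF and SP family was taken from a list of 17 genes. Of the 9 that passed the filter, none rose or fell, and their median log2 fold change was -0.08. At an unadjusted p under 0.05, 1 was higher (SP2) and 1 lower (KLF12, a CtBP-binding repressor of the same branch as KLF3), both named after their values were seen. KLF12 read 43.3, 10.1 and 59.3 CPM in controls, against 11.1, 13.4 and 8.76 CPM under knockdown (log2 fold change -1.75, edgeR adjusted p = 0.0969). Control library 2 lay within the knockdown range, and KLF12 fell with the DESeq2 Wald test and in the edgeR fit without that library. KLF16 and SP1, the general GC box activator, averaged 25.6 and 20.3 TPM in controls against 24.6 and 32.4 TPM under knockdown, whereas KLF1, KLF18, SP8 and SP9 were listed at 0 TPM in all 6.

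Genes known to induce KLF expression were listed apart (19 genes, among them the MEK5-ERK5-MEF2 kinases and factors, SRF and its partners, FOXO factors, the glucocorticoid receptor and TGF-beta receptors). By edgeR none rose and 1 fell, where 4.59% of all genes tested rose and 3.72% fell. At an unadjusted p under 0.05, 4 were higher and 1 lower. With the DESeq2 Wald test 3 rose and 1 fell, in a fit in which 18.8% of all genes passed. The 1 that fell was ELK1, a ternary complex partner of SRF (39.1 ± 4.84 to 25.1 ± 0.343 CPM, log2 fold change -0.64, edgeR adjusted p = 0.0401). ELK1 did not pass without any 1 of the knockdown libraries. Without control library 2, 6 of the 19 rose and 3 fell, in a fit in which 27.7% of all genes passed. With all libraries the median of the list was 0.29, and MAP2K5 and MAPK7, which encode MEK5 and ERK5, had log2 fold changes of -0.11 and 0.30. Of 12 corepressor and coactivator genes, 2 rose (16.7%, against 4.59% of all genes tested) and none fell by edgeR. At an unadjusted p under 0.05, 2 were higher and 2 lower. By the DESeq2 Wald test 2 rose and 2 fell, where 18.8% of all genes passed. KAT2A, a histone acetyltransferase gene, rose from 112 ± 21.1 to 240.3 ± 7.76 CPM (edgeR adjusted p = 0.0125), and SIN3B, a scaffold of histone deacetylases, from 69.6 ± 3.36 to 114 ± 2.21 CPM (edgeR adjusted p = 0.0162). Both failed without any 1 of the knockdown libraries. None of 8 genes of KLF protein turnover passed with edgeR or DESeq2, and 0 had an unadjusted p under 0.05, with the smallest p for WWP1, a ubiquitin ligase of KLF2 and KLF5 (log2 fold change -0.42, edgeR adjusted p = 0.281). Without control library 2, WWP1 and 2 others of the 8 fell.

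Of 23 genes described elsewhere as targets of KLF proteins, 18 were tested, 3 rose and 3 fell, with a median of -0.08. Of all genes tested, 4.59% rose and 3.72% fell. CCL5, the chemokine gene that KLF13 activates in T cells, read 17.5, 10.9 and 6.67 CPM in controls, against 153, 141 and 149 CPM under knockdown. CCL5 rose by 3.64 on the log2 scale (edgeR adjusted p = 0.00312) and passed in each of the 6 fits without a library. SMAD7, an inhibitor of TGF-beta signalling that KLF10 and KLF11 repress, rose from 7.37 ± 2.43 to 18.1 ± 2.15 CPM (edgeR adjusted p = 0.0350), and TAGLN, a smooth muscle gene, rose by 1.34 on the log2 scale. The cell cycle inhibitor gene CDKN1A, which KLF4 and KLF6 activate, fell from 171 ± 20.7 to 83.2 ± 5.17 CPM (edgeR adjusted p = 0.00976). BIRC5, which encodes survivin, fell from 97.7 ± 21.8 to 47.1 ± 3.09 CPM, and the cyclin gene CCNB1 fell by 0.88 on the log2 scale. On log2(TPM + 1) none of these 3 falls passed (log2 differences of -0.70, -0.73 and -0.60, limma-trend adjusted p = 0.249, 0.227 and 0.320), while CCL5, SMAD7 and TAGLN rose there too. Of these 6 genes CCL5 alone passed without any 1 of the knockdown libraries, SMAD7 and CCNB1 also failed without control library 1, and SMAD7, TAGLN and CCNB1 were picked for mention once their values were known. The endothelial targets of KLF2 were scarce: NOS3 averaged 0.344 TPM in controls against 0.321 TPM under knockdown, and THBD 0.0293 and 0.0557 TPM.

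Serum response genes outside the KLF family were listed because several KLF genes share this induction. Of 33 tested, 5 rose (15.2%, against 4.59% of all genes tested) and none fell by edgeR, and the median log2 fold change was 0.86. At an unadjusted p under 0.05, 18 were higher and 2 lower. The DESeq2 Wald test gave 10 risen and 2 fallen, in a fit in which 18.8% of all genes passed. DUSP1, a MAP kinase phosphatase gene, read 454, 360.5 and 424 CPM in controls, against 1705, 1679.7 and 1744 CPM under knockdown. DUSP1 rose by 2.05 on the log2 scale (edgeR adjusted p = 0.00124) and passed in each of the 6 fits without a library. IER5 rose from 36.6 ± 17.7 to 169 ± 3.57 CPM (edgeR adjusted p = 0.0130), and ZFP36, which encodes an mRNA decay factor, from 64.7 ± 27.0 to 215 ± 15.0 CPM (edgeR adjusted p = 0.0211). PPP1R15A and GADD45B were the other 2, named after their values were seen. Without any 1 of the knockdown libraries DUSP1 was the 1 gene to pass. Without control library 2 the list had 20 risen and 3 fallen genes of 34, in a fit in which 27.7% of all genes passed. For 23 of the 33 all knockdown values lay above all controls, against 21.9% of all genes tested. FOS and EGR1, the best known genes of this response, had log2 fold changes of 2.28 (edgeR adjusted p = 0.0969) and 0.67 (edgeR adjusted p = 0.685).

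**Figure D5:**
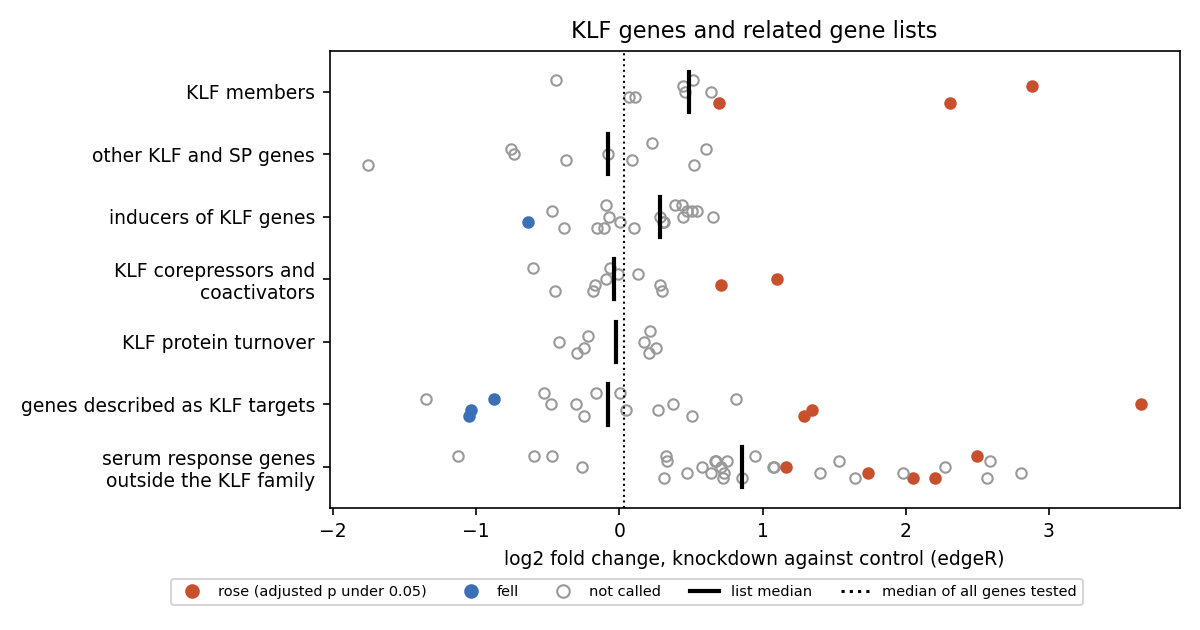
Fitted log2 fold changes, knockdown against control, of tested genes in the KLF group and 6 related lists, with filled points for an adjusted p under 0.05, a black bar at each list's median and a dotted line at the median of all genes tested (0.03). The KLF group has its median at 0.48 and the serum response list at 0.86, and SRF is in 2 lists.

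By the distance between centred log2 CPM values over the 6 libraries, the nearest of 13955 protein-coding genes to KLF4 were IDUA, a lysosomal enzyme gene (root mean square difference 0.0618), the kinase gene CAMK1D (0.108) and SLC16A4 (0.121). The nearest to KLF2 were SEMA3B (0.196), CALML6 (0.206) and LDLRAD2 (0.211), all under 10 CPM in both groups. For KLF10 they were IRF2BP2 (0.0205), PIDD1 (0.0231) and PDCD4 (0.0318). The 6 libraries fall into 2 groups, so these distances mostly describe the size of the group difference. The log2 CPM held a prior count of 2, which shrinks that difference for scarce genes. CALML6, at 0.0274 CPM in controls and 0.698 CPM under knockdown, had a fitted log2 fold change of 4.94 against 2.88 for KLF2. Among the 10 members, KLF7 and KLF13 were the closest pair (0.0729).

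Markers of other cell types were read beside the KLF rises, since KLF2 and KLF4 are high in endothelium and blood cells. Of 10 endothelial markers, 7 stayed under 1 TPM in every library, none of the 8 tested passed, and their summed TPM was 8.78 to 45.9 in controls and 10.6 to 14.0 in knockdown libraries, most of it TIE1. The defining gene PECAM1 averaged 0.137 TPM in controls against 0.102 TPM under knockdown. CDH5, with the smallest p of the list, read 0.405, 0 and 0 CPM in controls, against 2.46, 3.13 and 2.92 CPM under knockdown (edgeR adjusted p = 0.0566). It rose in the fits without control library 1 or 2 and with the DESeq2 Wald test, by which TIE1 fell. Macrophage markers summed to 61.3 to 229 TPM in controls and 57.8 to 61.6 TPM in knockdown libraries, most of it CD68 (edgeR adjusted p = 0.0958), with PTPRC at 0.0820 and 0.264 TPM, and none of 6 tested passed. CD68 fell in the fits without control library 2 or 3 and with the DESeq2 Wald test. Lymphocyte markers summed to at most 2.15 TPM in any library, with KLRD1 as the 1 tested gene (edgeR adjusted p = 0.772). Smooth muscle markers summed to 81.2 to 196 TPM in controls and 398 to 421 TPM in knockdown libraries, and 3 of 6 rose: MYH11 (edgeR adjusted p = 0.0130), ACTA2 (0.0310) and CNN1 (0.0335). Of all genes tested, 4.59% rose. Fibroblast markers summed to 9.10 to 46.1 and 58.8 to 76.1 TPM, with 1 of 6, PDGFRB, risen (edgeR adjusted p = 0.0195) and COL1A2 the most abundant. The list of urothelial and epithelial genes also held VIM, which encodes the mesenchymal filament vimentin. Of its 13 tested genes, the urothelial genes UPK1A and FOXA1 rose (edgeR adjusted p = 0.0251 and 0.0281), as did VIM (edgeR adjusted p = 0.0206). VIM averaged 1772 TPM in controls against 4250.0 TPM under knockdown. UPK1A and FOXA1 were scarce, at 0.505 and 1.37 TPM in controls against 5.33 and 5.68 TPM under knockdown. UPK1A had 15, 3 and 9 counts in the controls. PPARG and KRT7 were lower without passing (log2 fold changes -1.12 and -1.11, edgeR adjusted p = 0.196 and 0.210), and 11 of the 13 were above 0. The epithelial genes CDH1 and EPCAM averaged 0.154 and 0.10 TPM in controls, against 0.397 and 0.630 TPM under knockdown. Without any 1 of the knockdown libraries none of the 7 risen marker genes passed, and ACTA2 and CNN1 also failed without control library 3. Without control library 1, COL1A1 and COL1A2 rose as well. These markers are human genes, and the counts do not tell tumour RNA from host reads that match human transcripts. Their levels therefore cannot be read as amounts of host cells. Whether the risen smooth muscle and fibroblast genes came from such cells, and any part of this in the KLF rises, was not tested.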

How the data were processed

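Bulk RNA-seq covered 3 control and 3 GANAB knockdown libraries, each from 200 ng of total RNA per the labels' protocols. Estimated counts were deposited by the authors (whole numbers, keyed by Ensembl identifier) for 21503 genes, and TPM values for 60233 genes. The submitters' processing notes name fastp, Salmon, DESeq2 and GRCh38, without versions. Neither the annotation nor a step that removes mouse reads is named there, so host reads that match human transcripts could be counted. The deposited columns carry an abbreviation for knockout, the labels say knockdown.

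The estimated counts were tested with edgeR 4.0.16 (glmQLFit and glmQLFTest, R 4.3.3) after filterByExpr and TMM scaling, with no covariate, 2-sided, adjusted over all 19430 genes tested. The fit was tested on simulated data with the same dispersion in both groups, unlike these libraries, where the controls varied more. For genes above a CPM minimum it recovered 40% of 2-fold and 89% of 4-fold changes. It called 7 of 18249 unchanged genes. Depth was lowest in control library 3. Standard errors were derived from the F statistics. Pairs of libraries within a group differed beyond sampling noise (chi-square per degree of freedom 5.87 to 7.40 for knockdown pairs, 117 to 465 for control pairs). Libraries made separately from 1 sample can also exceed that noise, so these values do not show separate animals. Each library counted as 1 replicate. Alternatives were DESeq2 1.42.0, limma 3.58.1 (voom, and trend on log2 TPM with 1 or 0.1 added), other scalings and filters, a replicate block, each library left out and, chosen after seeing the data, mitochondrial genes left out.

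The members and all gene lists were chosen with earlier results of these data known. Named genes were GANAB, the 10 KLF genes, other KLF and SP genes that passed, up to 3 members of each list with the smallest p among those that passed (or 1 if none passed), the most abundant member of each marker list, and the 3 protein-coding genes nearest to each risen KLF gene. Other genes were named for their known role or after their values were seen. The result of 1 marker list is not reported here. Promoter sequences are from RefSeq (GRCh38.p14), and coordinates from GENCODE release 29 (GRCh38).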

Additional observations from a re-analysis of the deposited data

How the results depend on the processing

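KLF2 passed in 17 and KLF4 in 18 of 18 alternatives to the edgeR fit, with log2 fold changes of 2.70 to 3.25 and 2.22 to 2.68; the exception was KLF2 on log2(TPM + 1) with no filter (limma-trend adjusted p = 0.107). KLF10 passed in 10 of 18, always higher in the knockdown (adjusted p 0.00326 to 0.359). The number of KLF genes that rose was 2 to 4 over the fits without 1 library and 1 on log2(TPM + 1) with no filter, and the number that fell was 0 to 1 over the fits without 1 library. The number of all genes that passed was 3655 with the DESeq2 Wald test, 3716 with limma-voom and quality weights, 828 on log2(TPM + 1), 526 on log2(TPM + 0.1), 68 on log2(TPM + 1) with no filter, and 62 to 5604 without 1 library. Of those that passed, 55.3% were higher in the knockdown by the edgeR fit, 90.7%, 89.4% and 100% on the 3 TPM settings, 45.8% with limma-voom and quality weights, 50.7% with the DESeq2 Wald test, and 85.5%, 71.3% and 79.5% without knockdown library 1, 2 and 3. Signs turned for KLF11 (-0.052 with quality weights, -0.16 to 0.27 without 1 library), KLF5 (-0.18 with quality weights, -0.20 to 0.28 without 1 library) and KLRD1 (-0.0031 to 0.81 without 1 library), none of them passing; the cause was not tested.

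With the replicate number as a block, 566 genes passed and 2 KLF genes rose, KLF10 being lost (adjusted p = 0.105). The labels do not say whether the numbers pair the samples. Deviations of same-numbered libraries correlated at 0.0022, 0.0171 and 0.0218. The knockdown libraries differed so little from each other that these values cannot exclude pairing. Leaving mitochondrial genes out gave 1633 genes and the same 3 KLF genes. KLF5, with 47 counts in control library 2, is the member most limited by depth.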
